A study of Mus musculus with 29 samples.

Results

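The 32 genes described here encode proteins that act when a cell divides: mitotic cyclins and their kinase, mitotic kinases and checkpoint proteins, parts of the centromere and kinetochore, spindle and midzone proteins, and proteins of ubiquitin-dependent destruction. They were chosen by symbol from the deposited expression table. All 32 were among its 23918 usable symbols, and none was listed at 0 in any of the 29 libraries.

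Mouse nephron progenitor cells (NPCs) are the Six2-expressing cap mesenchyme cells of the embryonic kidney, from which nephrons form and which are used up soon after birth. The RNA of primary NPCs, of E12.5 kidney cells labelled Six2-negative and of long-term cultured NPC lines was sequenced from mice of a mixed C57BL/6 and 129 background with the Six2-GCE allele. This allele, carried by all groups alike, makes Six2-expressing cells produce a fluorescent fusion of an inducible Cre recombinase. The lines were grown as aggregates in the medium NPSR and sampled at passage 80 (P80) and passage 20 (P20), 1 library per line and passage, with 1 line each derived at E11.5, at E13.5, at E16.5 and at P1. Six2-negative cells gave 2 libraries, and primary NPCs gave 2 libraries at each of 5 ages, the embryonic days E11.5 and E12.5, then E13.5 and E16.5, and postnatal day 1 (P1). A further 9 libraries came from cultures labelled E13.5 from whose medium 1 component had been withdrawn: BMP7 (a growth factor) or CHIR (a GSK3 inhibitor) for 4 and 8 days, LIF (a cytokine) for 8 days, and heparin or Y27632 (an inhibitor of the kinase ROCK) for 4 and 8 days. Which line these cultures came from is not stated. Each withdrawal condition had 1 library of total RNA, and a culture in the complete medium is not among them. The other 20 libraries were of poly(A) RNA. The Six2-negative libraries carry the same cell type tag, NPC, as the others. The labels do not say how the cells were isolated or whether libraries of 1 age came from separate animals, so each p-value rests on a spread between libraries that may be technical.

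In a dividing cell, cyclin B and Cdk1 start mitosis, Plk1 and Aurora A build the spindle, the spindle checkpoint delays anaphase until chromosomes are attached, and the anaphase-promoting complex then marks cyclin B and securin for destruction. Transcripts of these genes accumulate in G2 and mitosis and are low in quiescent cells, so in bulk RNA their level depends on the share of cells near division. In such samples fewer dividing cells and less of a transcript per cell cannot be told apart.

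The unit is RPKM, in which reads are scaled by transcript length and by the mapped reads of the library, so that genes can be set side by side. Depth, estimated from the spacing of low values, ran from 6600000 to 32700000 reads. The summed RPKM of 16 cap mesenchyme markers was 285 and 246 in Six2-negative cells against 1420.0 and 1405 in E12.5 NPCs. The last 2 lines of the table are shifted in 18 libraries, among them all P80 lines and withdrawal libraries and no P20 line, so that passage and this split of the table cannot be told apart. In primary and Six2-negative cells library 2 is shifted and library 1 is not, except at E12.5 in NPCs, where neither is. Library number and this split cannot be told apart there. Exons of 6 of the genes (Ccna2, Cdc20, Cdca8, Kif20a, Nusap1 and Ube2c) share bases with a gene on the opposite strand in the mm9 annotation, and it is not given in the sources used here whether reads were counted by strand. Fold changes are differences of log2(RPKM + 1), which understate the change of low genes, with the standard error (SE) and the Benjamini-Hochberg adjusted p of limma over all genes tested. A gene is said to be called, or to have risen or fallen, at an adjusted p under 0.05.

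Over the 20 poly(A) libraries, the mean level ran from 8.44 RPKM for Cenpf, a large kinetochore protein, to 310.04 RPKM for Ube2c, the ubiquitin-conjugating enzyme of the anaphase-promoting complex. Next in order came Birc5, the survivin subunit of the chromosomal passenger complex, at 169 RPKM, Cdca3, a protein linked to a ubiquitin ligase that promotes mitotic entry, at 163 RPKM, and the centromeric histone gene Cenpa at 139.5 RPKM. The checkpoint kinase genes Bub1 (18.4 RPKM) and Ttk (17.0 RPKM), the cytokinesis genes Anln (12.6 RPKM) and Ect2 (8.95 RPKM) and the kinetochore kinesin gene Cenpe (12.3 RPKM) were at the low end. None of the 32 is in the list of 1217 NPC signature symbols of the authors' deposited table.

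Summed over the 32 genes, primary NPCs had 2510 and 2304 RPKM at E11.5, 2250 and 2304 RPKM at E12.5, 2236 and 2215 RPKM at E13.5, 2033 and 2037 RPKM at E16.5, and 926 and 1408 RPKM at P1. The P1 libraries stood at 38.5% and 58.5% of the E11.5 mean.

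**Figure D1:**
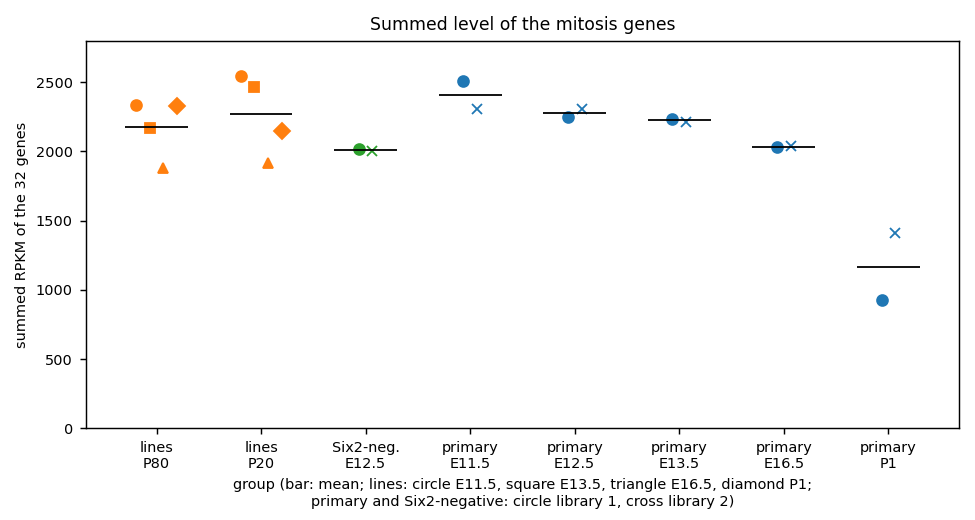
Summed RPKM of the 32 mitosis genes (vertical axis) by group (horizontal axis), 1 point per library, with the mean of each group as a bar. The 2 primary P1 libraries, at 926 and 1408, lie below all other libraries shown, including the lines derived at P1 at 2329 (P80) and 2148 (P20).

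Most mitosis genes were lower in primary NPCs at P1 than at E11.5. At P1, 24 of the 32 genes were lower and none was higher, where 17.7% of the 13574 genes tested were lower and 17.5% higher. The median log2 change of the 32 was -0.87, against 0.04 over all genes tested, and in 31 of them both P1 libraries lay below both E11.5 libraries (33.6% of all genes). The fall covered all 5 cyclin and Cdk1 genes, all 3 of the chromosomal passenger complex, all 3 spindle genes and all 3 genes of ubiquitin-dependent destruction (Ube2c, Cdc20 and Cdca3). It covered 4 of the 6 kinase and checkpoint genes, 3 of the 5 centromere and kinetochore genes, 2 of the 5 midzone and cytokinesis genes, and Top2a but not Mki67.

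Among the cyclins, Ccnf had 49.9 and 39.6 RPKM at E11.5, 40.7 and 34.6 at E12.5, 34.2 and 40.1 at E13.5, 23.1 and 17.3 at E16.5, and 5.68 and 11.1 at P1. Values at E16.5 lay below those of the younger ages and values at P1 below those at E16.5. Ccnf, which encodes cyclin F, the substrate-binding subunit of a ubiquitin ligase that limits centrosome duplication, had the largest change of the 32, -2.34 ± 0.27, adjusted p = 0.00108. Cdk1, the kinase of mitotic entry, had 105 and 98.0 RPKM at E11.5, 90.8 and 91.8 at E12.5, 94.5 and 94.4 at E13.5, 90.4 and 84.2 at E16.5, and 44.0 and 61.1 at P1. Both P1 values were lower than all other primary values of this gene (-0.95 ± 0.15, adjusted p = 0.00359). Ccnb1 had 31.9 and 31.9 RPKM at E11.5, 44.4 and 58.3 at E12.5, 29.0 and 27.6 at E13.5, 22.3 and 22.7 at E16.5, and 16.4 and 18.2 at P1. This cyclin B1 gene was highest at E12.5 and lowest at P1 (-0.85 ± 0.15, adjusted p = 0.00543). Ccnb2 and Ccna2, encoding cyclins B2 and A2, fell as well (-0.58 ± 0.17, adjusted p = 0.0315 for Ccnb2 and -0.48 ± 0.15, adjusted p = 0.0347 for Ccna2).

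Of the kinases, Plk1 had 87.4 and 72.4 RPKM at E11.5, 79.9 and 55.5 at E12.5, 80.4 and 71.2 at E13.5, 61.5 and 56.4 at E16.5, and 13.1 and 30.5 at P1. Aurka had 80.7 and 69.8 RPKM at E11.5, 71.1 and 61.2 at E12.5, 65.6 and 65.7 at E13.5, 51.0 and 47.2 at E16.5, and 12.04 and 25.6 at P1. These genes encode Polo-like kinase 1 and Aurora kinase A, which act in centrosome maturation and spindle assembly. Their P1 values lay below all values of the other ages, with library 1 below library 2 in both. The changes were -1.93 ± 0.33, adjusted p = 0.00457 for Plk1 and -2.03 ± 0.27, adjusted p = 0.00202 for Aurka. Among the spindle checkpoint genes, Bub1b, encoding BubR1, and Mad2l1 fell (-0.999 ± 0.20, adjusted p = 0.00745 and -0.58 ± 0.18, adjusted p = 0.0403). Bub1 (-0.42 ± 0.21, adjusted p = 0.15) and Ttk, encoding the kinase Mps1 (-0.56 ± 0.20, adjusted p = 0.0543), were not called.

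In the chromosomal passenger complex, which corrects chromosome attachment and later moves to the midzone, Birc5 had 195 and 183 RPKM at E11.5, 186 and 175 at E12.5, 185 and 179 at E13.5, 170.3 and 163 at E16.5, and 81.8 and 107 at P1. Both P1 values were the lowest of this gene (-1.01 ± 0.14, adjusted p = 0.00224). Cdca8, encoding borealin, and Aurkb, the kinase of the complex, fell too (-1.38 ± 0.20 and -0.90 ± 0.20). Among the genes of ubiquitin-dependent destruction, Ube2c had 429 and 359 RPKM at E11.5, 336 and 322 at E12.5, 349 and 352 at E13.5, 325 and 321 at E16.5, and 91.0 and 169 at P1. Both P1 values were below all values of the other ages (-1.66 ± 0.24, adjusted p = 0.00274). Cdc20, the activator of the anaphase-promoting complex, and Cdca3 fell with it (-1.40 ± 0.28 and -0.95 ± 0.27).

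Of the spindle genes, Tpx2, whose product activates Aurora A on microtubules, had 62.5 and 64.4 RPKM at E11.5, 64.1 and 66.7 at E12.5, 60.4 and 64.9 at E13.5, 55.6 and 53.6 at E16.5, and 23.1 and 33.2 at P1. The P1 values lay below those of each younger age (-1.17 ± 0.16, adjusted p = 0.00196). The spindle motor gene Kif11 and the microtubule-bundling gene Nusap1 also fell (-0.58 ± 0.19 and -0.57 ± 0.19). At the centromere, Cenpa had 166 and 139 RPKM at E11.5, 130.5 and 146 at E12.5, 152 and 123 at E13.5, 143 and 128 at E16.5, and 63.4 and 105 at P1. P1 library 2 came closer to the other ages than library 1, and both P1 values were below all others (-0.89 ± 0.23, adjusted p = 0.018). Cenpe and Cenpf fell too (-1.14 ± 0.24, adjusted p = 0.00889 and -0.62 ± 0.20, adjusted p = 0.0428), whereas Ndc80 (-0.49 ± 0.22, adjusted p = 0.106) and Nuf2 (-0.45 ± 0.20, adjusted p = 0.103), subunits of the complex that binds microtubule ends, were not called. Cenpf had 10.4 and 9.04 RPKM at E11.5, 9.22 and 12.3 at E12.5, 9.19 and 10.3 at E13.5, 8.19 and 9.15 at E16.5, and 4.84 and 7.33 at P1. P1 library 1 was the lowest of these.

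Of the genes of the midzone and cytokinesis, Kif20a, a kinesin of the central spindle, had 64.0 and 56.5 RPKM at E11.5, 59.5 and 56.0 at E12.5, 57.4 and 53.6 at E13.5, 45.0 and 47.5 at E16.5, and 17.4 and 30.6 at P1. It fell at P1 against E11.5 (-1.34 ± 0.22, adjusted p = 0.00365), as did the microtubule-bundling gene Prc1 (-0.74 ± 0.16, adjusted p = 0.00982). The midzone kinesin gene Kif23 (-0.43 ± 0.16, adjusted p = 0.0697) and Anln, encoding anillin (-0.39 ± 0.17, adjusted p = 0.112), were not called. Ect2 had 6.51 and 7.58 RPKM at E11.5, 12.3 and 24.2 at E12.5, 6.82 and 8.41 at E13.5, 6.00 and 6.63 at E16.5, and 9.91 and 4.72 at P1. Ect2, the activator of RhoA at the division plane, had P1 values on both sides of the E11.5 values and its highest value in E12.5 library 2, and it had the smallest change of the 32, -0.02 ± 0.40, adjusted p = 0.971. Top2a, the topoisomerase that untangles chromosomes, had 109 and 109 RPKM at E11.5, 93.2 and 107 at E12.5, 108 and 115 at E13.5, 83.4 and 106 at E16.5, and 45.3 and 73.3 at P1. P1 values were lower than all other primary values (-0.90 ± 0.21, adjusted p = 0.0137). Mki67 had 26.6 and 27.3 RPKM at E11.5, 24.3 and 31.4 at E12.5, 25.7 and 30.6 at E13.5, 24.996 and 31.8 at E16.5, and 15.5 and 23.6 at P1. P1 library 2 of this proliferation marker gene was just below the lowest of the other ages, and it was not called (-0.48 ± 0.21, adjusted p = 0.113).

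**Figure D2:**
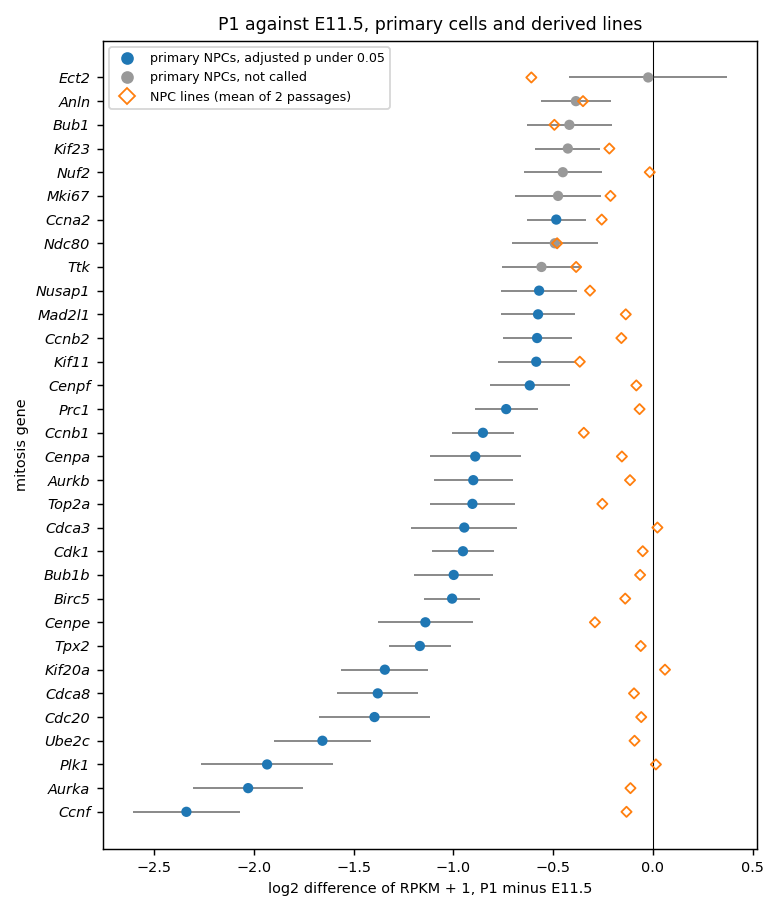
Log2 difference of RPKM + 1, P1 minus E11.5 (horizontal axis), for the 32 mitosis genes (vertical axis). Filled points with SE bars are primary NPCs (2 libraries per age; blue, adjusted p under 0.05; grey, not called), and open diamonds are the P1 line minus the E11.5 line, averaged over both passages. Primary values run from -0.02 (Ect2) to -2.34 (Ccnf), and those of the lines from -0.61 (Ect2) to 0.06 (Kif20a). The lines lie near 0 for Plk1 (0.02), Aurka (-0.11) and Ccnf (-0.13). For Bub1 the mean of the lines (-0.49) is near the primary value (-0.42), but the passages differ. At P80 the P1 line was above the E11.5 line in Bub1 (0.19). Against the E11.5 line, 29 of the 32 genes were lower in the P1 line at P20 and 10 at P80.

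Promoters of 28 of the genes were found in the RefSeq table (GRCm38.p6), in windows around the annotated transcription start; Aurkb, Ccna2, Kif20a and Tpx2 were not matched. Cell cycle promoters of this class are known for the CHR element, bound by the DREAM and MuvB complexes, and for CCAAT boxes, bound by NF-Y. The CHR letters are TTTGAA or TTCGAA, on either strand. They were in a promoter of 78.6% of the 28 genes, against 21.7% of all 27025 genes with a promoter. TTTGAA by itself was in 21 of the 28, against 20.2% of all. CCAAT on either strand was in 78.6% against 41.1%, and both kinds together in 71.4% against 8.61%. For 18 G1/S and replication genes with a promoter, the CHR letters were found in 16.7% and CCAAT in 66.7%. For 58 other mitosis genes with a promoter, the CHR letters were found in 63.8% and CCAAT in 63.8%. These are matches of letters, not measured binding. The promoters of the 3 genes with the largest fall at P1 and of Ect2, with the smallest, are shown, 5′ to 3′ on the strand of the gene, with every match in capitals. Their windows are chr17:24251360-24251659 (minus strand) for Ccnf, chr2:172370521-172370820 (minus) for Aurka, chr7:122159185-122159484 (plus) for Plk1 and chr3:27153805-27154104 (minus) for Ect2.
Ccnf: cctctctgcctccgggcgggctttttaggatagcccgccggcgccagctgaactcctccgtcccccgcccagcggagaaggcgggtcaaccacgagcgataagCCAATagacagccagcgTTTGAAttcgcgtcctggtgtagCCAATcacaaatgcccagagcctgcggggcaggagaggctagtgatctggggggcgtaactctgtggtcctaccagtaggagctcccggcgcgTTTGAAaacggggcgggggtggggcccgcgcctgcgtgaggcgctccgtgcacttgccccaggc
Aurka: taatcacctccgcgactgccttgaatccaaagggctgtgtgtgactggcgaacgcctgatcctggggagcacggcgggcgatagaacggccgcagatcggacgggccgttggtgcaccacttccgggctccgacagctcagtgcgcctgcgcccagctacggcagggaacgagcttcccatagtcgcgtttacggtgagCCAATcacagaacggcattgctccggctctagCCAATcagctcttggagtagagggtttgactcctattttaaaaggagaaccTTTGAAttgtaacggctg
Plk1: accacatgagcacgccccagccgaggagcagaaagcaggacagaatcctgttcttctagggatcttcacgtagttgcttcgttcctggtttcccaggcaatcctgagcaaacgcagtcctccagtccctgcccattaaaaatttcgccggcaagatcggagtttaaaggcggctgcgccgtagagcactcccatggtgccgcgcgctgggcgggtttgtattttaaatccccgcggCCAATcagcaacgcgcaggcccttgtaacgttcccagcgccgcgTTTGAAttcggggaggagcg
Ect2: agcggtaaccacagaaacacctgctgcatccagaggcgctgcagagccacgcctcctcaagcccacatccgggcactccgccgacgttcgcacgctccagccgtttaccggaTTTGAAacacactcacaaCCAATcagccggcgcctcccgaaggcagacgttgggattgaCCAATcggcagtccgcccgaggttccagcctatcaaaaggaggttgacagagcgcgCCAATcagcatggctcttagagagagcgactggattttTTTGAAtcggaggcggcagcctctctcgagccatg
All 4 windows held TTTGAA and CCAAT, among the genes that fell most and in the one that fell least alike. TTTGAA was matched 2 times in Ccnf and Ect2 and 1 time in Aurka and Plk1. CCAAT was matched 2 times in Ccnf and Aurka, 1 time in Plk1 and 3 times in Ect2.

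The count of 24 at P1 was 11 without E11.5 library 1 and 14 without E11.5 library 2 or without P1 library 1, and the median was -1.07 without P1 library 2 and -0.52 without P1 library 1. The P1 libraries differed from each other: 28 of the 32 genes were higher in library 2 than in library 1. They also differed in genes of other cells. Summed over 14 tubule markers the P1 libraries had 3817 and 387 RPKM, with all 14 above 0, against 12.6 and 14.9 RPKM, with 3 and 5 markers at 0, in the E11.5 libraries. Macrophage markers (10 measured) summed to 1403 and 130.4 RPKM at P1 against 75.7 and 53.1 RPKM at E11.5, and 12 stroma markers to 454 and 375 RPKM at P1 against 85.9 and 119.9 RPKM at E11.5. Housekeeping genes, 12 in number, summed to 3712 and 4015 RPKM at P1 and to 4552 and 4552 RPKM at E11.5. Libraries 1 and 2 of E16.5 differed in such markers too, with macrophage sums of 686 and 51.9 RPKM. Stroma markers there summed to 709 and 204 RPKM, and erythroid markers to 695 and 151 RPKM. The part of these other cells in the fall of the mitosis genes was not tested.

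Other genes of cell division were lower at P1 too. Of 73 other mitosis genes, 41 fell and none rose (median -0.65). The largest falls were those of Gtse1 (-1.65 ± 0.21), which encodes a microtubule-binding protein, Espl1 (-1.51 ± 0.28), the separase that cuts sister chromatids apart, and the kinesin genes Kif22 (-1.48 ± 0.25) and Kif2c (-1.46 ± 0.24). Genes of G1/S and replication, 24 in number, fell in 20 cases and rose in 1 (median -1.03), led by Ccne1, encoding cyclin E1 (-1.69 ± 0.18), Rrm2 (-1.48 ± 0.18) and Tyms (-1.45 ± 0.14) of nucleotide synthesis, and Mcm10 (-1.39 ± 0.21). Of 19 regulators of mitotic entry and exit, 9 fell, among them Fzr1 (-1.32 ± 0.30), the late activator of the anaphase-promoting complex, and the phosphatase gene Cdc25a (-1.12 ± 0.17). Of 21 transcriptional regulators of G2/M genes, 8 fell and 1 rose. Foxm1, which activates mitosis genes, fell (-0.94 ± 0.24), and Rbl2, encoding the p130 subunit of the repressive DREAM complex, rose (1.16 ± 0.18). The CDK inhibitors went both ways. Cdkn1c fell to 74.3 RPKM at P1, against 591 RPKM at E11.5 (-2.98 ± 0.16), while Cdkn2c (2.37 ± 0.36), Cdkn1a (2.05 ± 0.46) and Cdkn1b (1.87 ± 0.41) rose.

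Between E16.5 and E13.5 none of the 32 genes was called (1 at an unadjusted p under 0.05, and 0.619% of all genes were called), with a median of -0.15 and 27 values below 0. The values ranged from -0.86 ± 0.27 for Ccnf to 0.32 ± 0.17 for Ccnb2. Ccnb2 had 93.4 and 84.9 RPKM at E11.5, 79.1 and 82.4 at E12.5, 82.4 and 77.2 at E13.5, 107 and 92.2 at E16.5, and 49.0 and 71.6 at P1. Its highest value was that of E16.5 library 1 and its lowest that of P1 library 1. Between P1 and E16.5, 12 fell and none rose, where 3.74% of all genes were lower and 2.73% higher, with a median of -0.71. This comparison shares the P1 libraries with that against E11.5. They were Plk1, Aurka, Ube2c, Ccnf, Cdca8, Kif20a, Tpx2, Birc5, Bub1b, Cdk1, Prc1 and Ccnb2, from -1.51 ± 0.33 for Plk1 to -0.74 ± 0.17 for Ccnb2, and Ect2 stood at 0.11 ± 0.40. This count was 0 without either E16.5 library and 21 without P1 library 2. It was 3 without either E11.5 or either E13.5 library, which enter the comparison through the estimate of the spread, 5 without either E12.5 or either Six2-negative library, and 4 without P1 library 1. Over all genes, 879 were called in either direction with every library in. Without E16.5 library 1 or 2 there were 313 and 154, and without P1 library 2 there were 3912. There were 266 to 284 without an E11.5 or E13.5 library, 452 to 459 without an E12.5 or Six2-negative library, and 197 without P1 library 1.

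**Figure D3:**
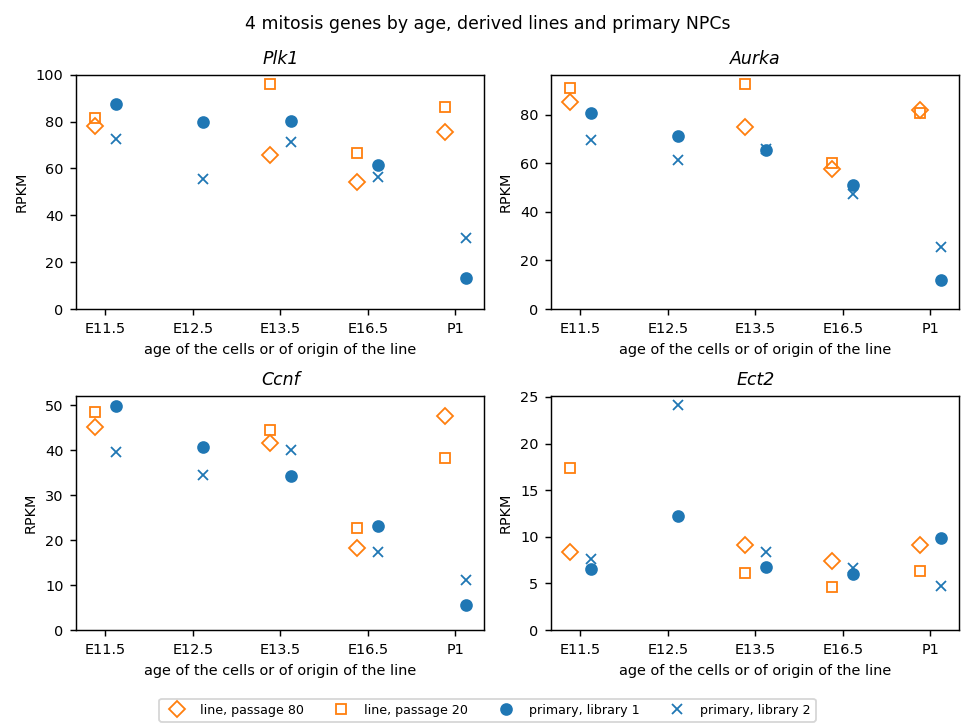
RPKM (vertical axis, from 0) of Plk1, Aurka, Ccnf and Ect2 by age of the cells or of origin of the line (horizontal axis), 1 point per library. In primary cells (blue) Plk1, Aurka and Ccnf are lowest at P1, at 13.1 to 30.5, 12.04 to 25.6 and 5.68 to 11.1 RPKM, while the lines (orange, open) derived at P1 have 75.4 to 86.1, 80.6 to 81.9 and 38.2 to 47.5 RPKM. Ect2 shows no such difference, and its highest value, 24.2 RPKM, is that of E12.5 library 2.

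Between Six2-negative cells and NPCs of the same age, E12.5, 1 of the 32 mitosis genes was called. In sum the genes had 2021 and 2004 RPKM in Six2-negative cells, against 2250 and 2304 RPKM in NPCs. The median log2 change was -0.17 (0.02 over all genes), and 29 of 32 values were below 0. The 1 gene called was Ccnb1, with 34.2 and 27.9 RPKM in Six2-negative cells, against 44.4 and 58.3 RPKM in E12.5 NPCs (-0.70 ± 0.15, adjusted p = 0.0183), where 4.32% of all genes were lower and 9.28% higher. Its call was lost without Six2-negative library 2 or without E12.5 library 2. Over all genes, 1846 were called in either direction with every library in, and 400 and 476 in these settings. Ect2 had the lowest change, with 11.47 and 6.01 RPKM in Six2-negative cells, against 12.3 and 24.2 RPKM in E12.5 NPCs, and Ccnb2 the highest, with 86.2 and 85.0 RPKM in Six2-negative cells, against 79.1 and 82.4 RPKM in E12.5 NPCs. The libraries of Ect2 were spread so widely that a change of this size was not called (-0.97 ± 0.40, adjusted p = 0.156), and Ccnb2 differed little (0.08 ± 0.17, adjusted p = 0.803). Plk1 (0.04 ± 0.33) and Kif20a (0.05 ± 0.22) stood near 0 on the log2 scale. Of the most abundant genes of each role, Ube2c had 276 and 277 RPKM in Six2-negative cells, against 336 and 322 RPKM in E12.5 NPCs. Cenpa had 116 and 129 RPKM in Six2-negative cells, against 130.5 and 146 RPKM in E12.5 NPCs. Tpx2 had 61.2 and 59.1 RPKM in Six2-negative cells, against 64.1 and 66.7 RPKM in E12.5 NPCs. In these 3 genes both Six2-negative values lay below both NPC values, an order that is no test with 2 libraries per group. Birc5 had 172 and 183 RPKM in Six2-negative cells, against 186 and 175 RPKM in E12.5 NPCs. Cdk1 had 84.0 and 93.5 RPKM in Six2-negative cells, against 90.8 and 91.8 RPKM in E12.5 NPCs. Top2a had 95.0 and 97.2 RPKM in Six2-negative cells, against 93.2 and 107 RPKM in E12.5 NPCs. Their values overlapped. Plk1 had 73.3 and 63.6 RPKM in Six2-negative cells, against 79.9 and 55.5 RPKM in E12.5 NPCs. Kif20a had 61.5 and 58.0 RPKM in Six2-negative cells, against 59.5 and 56.0 RPKM in E12.5 NPCs. They overlapped as well, and none of these 8 genes was called. E12.5 library 2 held the highest value of 16 of the 32 genes among the 12 primary and Six2-negative libraries, and E11.5 library 1 that of 13. Of the other mitosis genes 2 of 73 fell, the centromere genes Cenpw (-1.68 ± 0.24) and Cenph (-0.52 ± 0.14). Of 24 G1/S genes, 2 rose, Ccnd1 (1.57 ± 0.32) and Ccnd2 (1.05 ± 0.13), which encode D-type cyclins, and 2 fell, Rrm2 (-0.84 ± 0.18) and Pcna (-0.58 ± 0.15). In these 2 Six2-negative libraries, stroma markers summed to 889 and 1174 RPKM, against 179.8 and 138 RPKM in E12.5 NPCs. Erythroid markers summed to 2437 and 5971 RPKM in Six2-negative cells, against 42.3 and 24.0 RPKM in E12.5 NPCs. The part of these cells in the values of the mitosis genes was not tested.

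In the cultured lines the sums of the mitosis genes lay near those of embryonic NPCs. Ordered by the age of origin of the line, from E11.5 through E13.5 and E16.5 to P1, their sum was 2338, 2167, 1878 and 2329 RPKM at P80 and 2544, 2464, 1916 and 2148 RPKM at P20, against 2510 and 2304, 2236 and 2215, 2033 and 2037, and 926 and 1408 RPKM in primary cells of those ages. Both passages of a line entered the fit as separate libraries, though they are not independent. With age as a term, 5 genes were higher at P80 and none lower, where 15.3% of 13612 genes were higher and 24% lower. At P20, 3 were higher and none lower, where 14.5% were higher and 21.6% lower. The median change was 0.22 at P80 and 0.18 at P20, against -0.11 over all genes in both. Ccnb1, Cdk1 and Anln were called higher at both passages, which share the primary libraries, and Bub1 and Ttk at P80. The share of mitosis genes called higher was near that of all genes at P80 and below it at P20. The share called lower was below that of all genes at both passages.

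Cdk1 had 118, 106, 99.4 and 119 RPKM at P80 and 121, 129, 105 and 112 RPKM at P20. In primary cells of these ages it lay between 44.0 and 105 RPKM. All P20 lines were above all primary libraries, and at P80 the E16.5 line overlapped them (0.44 ± 0.16, adjusted p = 0.0436 at P80 and 0.52 ± 0.16, adjusted p = 0.0221 at P20). Ccnb1 had 34.9, 36.0, 34.1 and 38.2 RPKM at P80 and 55.4, 33.2, 25.5 and 30.9 RPKM at P20, and primary libraries of these ages had 16.4 to 31.9 RPKM. The P80 values were all above these, while those at P20 were not, and E12.5 NPCs, an age with no line, were above all P80 values (0.54 ± 0.15, adjusted p = 0.0123 at P80 and 0.49 ± 0.15, adjusted p = 0.0202 at P20). Anln had 14.7, 15.9, 14.2 and 15.4 RPKM at P80 and 23.3, 13.2, 12.2 and 13.3 RPKM at P20, all above the 7.11 to 10.6 RPKM of primary cells of these ages, where E12.5 NPCs had 11.7 and 16.6 RPKM. Its change was 0.65 ± 0.14, adjusted p = 0.00303 at P80 and 0.64 ± 0.14, adjusted p = 0.00335 at P20. Aurka had the highest change at both passages and was not called, with 85.1, 75.1, 57.7 and 81.9 RPKM at P80 and 90.8, 92.5, 60.0 and 80.6 RPKM at P20 and primary libraries at 12.04 to 80.7 RPKM (0.69 ± 0.31, adjusted p = 0.0998 at P80 and 0.79 ± 0.31, adjusted p = 0.0653 at P20). The lowest change was that of Cenpf at P80, with 7.86, 7.66, 7.24 and 8.61 RPKM at P80 and 8.85, 9.08, 6.60 and 7.10 RPKM at P20 (-0.09 ± 0.14, adjusted p = 0.639), and that of Mki67 at P20, with 27.3, 25.3, 21.6 and 27.9 RPKM at P80 and 23.4, 21.2, 17.1 and 16.7 RPKM at P20 (-0.36 ± 0.15, adjusted p = 0.0672). Neither was called.

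Of the most abundant genes of the other roles, Ube2c had 321, 294, 286 and 303 RPKM at P80 and 361, 369, 325 and 337 RPKM at P20. Birc5 had 202, 180.0, 139 and 195 RPKM at P80 and 192, 199, 131 and 164 RPKM at P20. Cenpa had 152, 153, 134 and 156 RPKM at P80 and 189, 179.5, 137 and 149 RPKM at P20. In these genes the E16.5 line was the lowest at each passage. Top2a had 117, 112, 82.5 and 114 RPKM at P80 and 113, 107, 72.3 and 81.5 RPKM at P20. Plk1 had 78.1, 65.6, 54.1 and 75.4 RPKM at P80 and 81.3, 95.9, 66.6 and 86.1 RPKM at P20. Tpx2 had 62.2, 57.9, 52.6 and 61.7 RPKM at P80 and 64.5, 62.6, 50.7 and 59.7 RPKM at P20. The same holds for these 3 genes and for Kif20a. Kif20a had 55.0, 59.3, 47.1 and 57.9 RPKM at P80 and 55.3, 64.8, 49.1 and 57.2 RPKM at P20. The E16.5 line held the lowest value among the 8 line libraries at P80 in 12 of the 32 genes and at P20 in 17.

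The age P1 gave the largest differences. Set against primary cells of its own age, the line from P1 was higher in 32 of 32 genes at P80 (median 0.95, against -0.07 over all genes) and in 28 at P20 (median 0.79, against -0.09 over all genes). The lines from E11.5 (0.02 at P80 and 0.11 at P20) and E13.5 (0.07 and 0.11) had medians closer to 0, where those of all genes ran from -0.08 to -0.10. For the line from E16.5 the medians (-0.11 and -0.15) were near those of all genes (-0.12 and -0.14). Summed over the 14 tubule markers, the P1 line had 315 RPKM at P80 and 131 RPKM at P20, against 3817 and 387 RPKM in primary P1 cells. Averaged over the lines, the highest of these markers at P80 and P20 were Spp1 (191.9 and 51.9 RPKM), Atp1b1 (56.9 and 29.6) and Epcam (19.6 and 34.4). Each other tubule marker averaged at most 1.43 RPKM (Fxyd2 at P20). The 10 macrophage markers summed to 20.2 and 35.2 RPKM in the P1 line at P80 and P20, with 8 and 4 of them at 0, against 1403 and 130.4 RPKM, with none at 0, in primary P1 cells. The part of these marker genes in the difference was not tested. With P1 libraries left out, a choice made after the data were seen, 3 genes were higher and 4 lower at P80 (median -0.02), and 4 were higher and 3 lower at P20 (median 0.05). The medians over all genes were then -0.11 at P80 and -0.10 at P20. With P1 libraries in, 15.3% of all genes were higher and 24% lower at P80, and 14.5% and 21.6% at P20. Without the line from P1 at the passage tested, the count of higher genes was 1 at P80 (median 0.03) and 1 at P20. At P80 it was 2 without E11.5 library 2, E13.5 library 1, P1 library 2, the E13.5 line at P20 or the E16.5 line at P80. It was 3 there without E11.5 library 1, E13.5 library 2, E16.5 library 1, P1 library 1 or the E13.5 line at P80. At P20 it was 5 higher and 2 lower without P1 library 1, 2 higher without the E11.5 or the E13.5 line at P20, and 4 higher and 1 lower without the P1 line at P80. Within the libraries on 1 side of the shift in the table, also chosen after the data were seen, 1 gene was called at P80 and none at P20, where 1262 of all genes were still called.

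**Figure D4:**
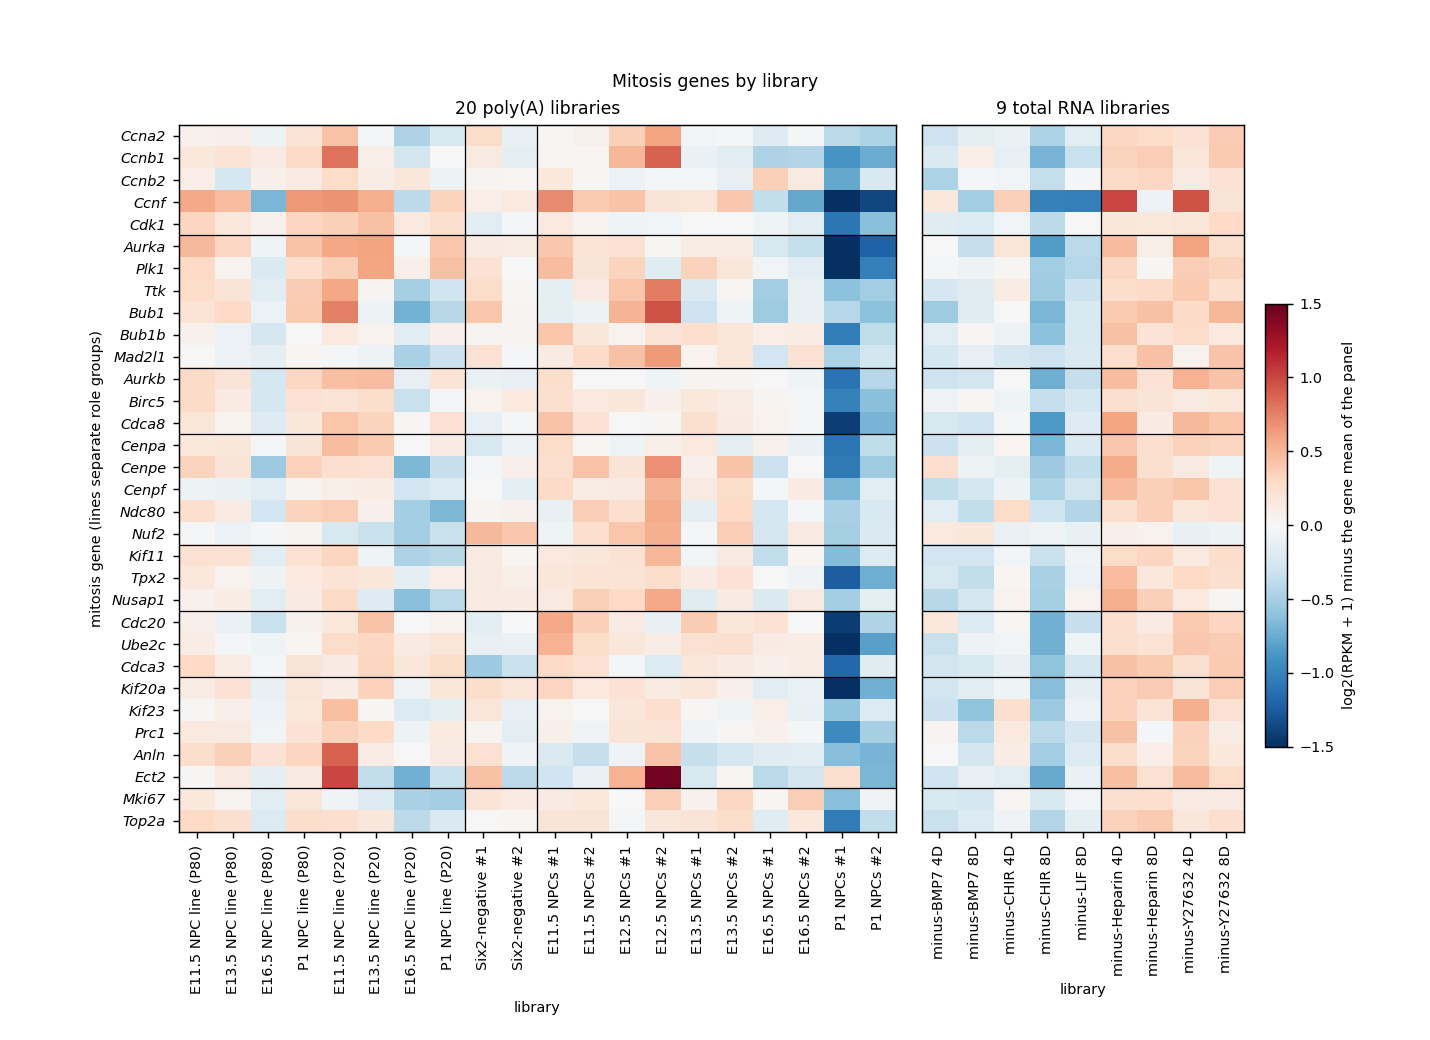
Level of each mitosis gene (rows, in role groups) by library (columns), as log2(RPKM + 1) minus the gene mean of the panel, from blue (lower) to red (higher); the left panel holds P80 and P20 lines, Six2-negative cells and primary NPCs, and the right panel the withdrawal libraries, with heparin and Y27632 to the right of its line. The 2 P1 columns are blue for nearly all genes, with library 1 darker (lowest among primary and Six2-negative libraries for 28 of 32), and CHIR withdrawal at day 8 is the lowest of its panel for 26 of 32.

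Between passages no mitosis gene was called. With line of origin as a block, none of the 32 and none of 12129 genes (0%) was called by limma in P80 lines against P20 lines. At an unadjusted p under 0.05 there were 4 among the 32, and with no block 1 of all genes was called. The median was 0.00, with 16 genes above 0 and 16 below. The ends were Plk1, with -0.27 ± 0.10 (adjusted p = 0.406), and Mki67, with 0.37 ± 0.12 (adjusted p = 0.406).

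Some other cell cycle genes differed widely between lines and primary NPCs. The CDK inhibitor gene Cdkn1a averaged 210.1 RPKM in P80 lines and 229 RPKM in P20 lines, against 9.88 RPKM in primary cells (4.60 ± 0.34 and 4.69 ± 0.34), and Cdkn2a (3.96 ± 0.49 and 4.31 ± 0.49) and Cdkn2b (2.86 ± 0.22 and 2.88 ± 0.22) rose at P80 and P20 too. Of 7 CDK inhibitors 3 rose and 1 fell at each passage, Cdkn2c at P80 (-0.92 ± 0.33) and Cdkn1c at P20 (-1.37 ± 0.50). The D-type cyclin gene Ccnd1 averaged 2.88 RPKM at P80 and 4.48 RPKM at P20, against 51.3 RPKM in primary cells (-3.71 ± 0.21 and -3.30 ± 0.21), and Ccnd2 fell with it (-3.38 ± 0.39 and -2.41 ± 0.39). Of 23 G1/S and replication genes tested 6 fell at P80 and 4 at P20, shares near those of all genes (24% and 21.6% lower), and none rose. Other mitosis genes moved both ways, with 17 of 73 higher and 6 lower at P80 and 14 higher and 3 lower at P20, where 15.3% and 14.5% of all genes were higher. Psrc1, a spindle gene, had the largest rise (2.12 ± 0.26 and 2.00 ± 0.26), followed by Hmmr (0.98 ± 0.16 and 0.90 ± 0.16) and Zwint (0.97 ± 0.17 and 1.02 ± 0.17), and Pttg1, encoding securin, fell (-0.92 ± 0.09 and -0.66 ± 0.09). Of 21 G2/M regulators 7 fell and 1, E2f7, rose at each passage, against the same 24% and 21.6% of all genes lower.

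A late origin (E16.5 and P1) was compared with an early one (E11.5 and E13.5), in lines and in primary cells, with the passages of each line averaged. In lines, none of the 32 genes was called (2 at an unadjusted p under 0.05; 0.0441% of all genes called), and 31 values were below 0 with a median of -0.23. In primary cells, Ccnf (-1.60 ± 0.36, adjusted p = 0.0139), Aurka (-1.22 ± 0.36, adjusted p = 0.0352), Kif20a (-0.80 ± 0.26, adjusted p = 0.0451), Cenpe (-0.78 ± 0.21, adjusted p = 0.0287) and Ccnb1 (-0.58 ± 0.13, adjusted p = 0.0134) were lower, 5 of 32 with 9.52% of all genes lower and 15.2% higher, and the median was -0.47. Markers of other cells were higher in the same late libraries. Of 14 tubule markers 12 were called higher, with sums of 155 to 3817 RPKM in late against 10.5 to 22.8 RPKM in early primary libraries. Of 11 stroma markers tested 9 were higher and 1 lower (sums over 12 of 204 to 709 against 85.9 to 119.9 RPKM), and of 9 ureteric bud markers 7 were higher (71.9 to 451 against 52.9 to 64.1 RPKM). Their part in the lower mitosis genes was not tested. The ends in lines were Ccnf (-0.59 ± 0.50) and Ccnb2 (0.02 ± 0.29), and in primary cells Ccnf and Ect2 (-0.13 ± 0.20). Tested directly, the difference between lines and primary cells in this origin effect was not called for any of the 32 (0 at an unadjusted p under 0.05; 0.713% of all genes called). Its median was 0.22, and it ran from -0.33 ± 0.35, adjusted p = 0.561 for Ect2 to 1.01 ± 0.61, adjusted p = 0.353 for Ccnf. The primary count was 13 without E16.5 library 1, 22 without E16.5 library 2, 2 without E11.5 library 1, E11.5 library 2, E13.5 library 2 or P1 library 2, and 3 without E13.5 library 1, the E11.5 line or the E13.5 line. Over all genes, 3367 were called in either direction with every library in. There were 5561 without E16.5 library 2, and 1188 to 1932 in the settings where the primary count was 2. Without P1 library 1 the median was -0.29 in primary cells and 0.04 for the difference. With P1 set against E11.5 alone, an alternative chosen after the data were seen, the median of the difference was 0.66 and still none was called. With P1 left out it was -0.10.

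Ccnf had 45.2, 41.7, 18.4 and 47.5 RPKM at P80 and 48.5, 44.4, 22.7 and 38.2 RPKM at P20. The E16.5 line was lowest at both passages, and the P1 line was highest at P80 and below the early lines at P20. Against the E11.5 line of the same passage, the P1 line had a median of 0.03 over the 32 genes at P80 and -0.32 at P20, and the E16.5 line -0.27 and -0.50. Ect2 had 8.35, 9.16, 7.37 and 9.13 RPKM at P80 and 17.4, 6.14, 4.61 and 6.31 RPKM at P20, and Ccnb2 had 89.9, 69.9, 88.2 and 92.2 RPKM at P80 and 102, 90.8, 94.2 and 79.7 RPKM at P20. The E11.5 line at P20 stood above all other lines in Ect2. Among the other lists, Cdkn2a was called in lines of late against early origin, with 47.8 RPKM in late and 7.02 RPKM in early lines on average (2.58 ± 0.28, adjusted p = 0.00533), and in the test of the difference (2.47 ± 0.34, adjusted p = 0.0138).

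Withdrawal of BMP7, CHIR or LIF was set against the mean of heparin and Y27632 withdrawal on the same day, with 1 library per condition and so no test. Mitosis genes were lower in all 5 libraries. Their sum was 1577 RPKM without BMP7 and 1793 RPKM without CHIR at day 4, against 2320 RPKM without heparin and 2245 RPKM without Y27632. At day 8 it was 1627 RPKM without BMP7, 1226 RPKM without CHIR and 1583 RPKM without LIF, against 2140 RPKM without heparin and 2238 RPKM without Y27632.

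At day 4, 31 of the 32 genes were lower without BMP7 (median log2 difference -0.56, 50.8% of all genes lower) and 31 without CHIR (-0.33, 52%). At day 8, 31 were lower without BMP7 (-0.46, 54.2%), 32 without CHIR (-0.76, 53%) and 32 without LIF (-0.46, 52.6%). Heparin and Y27632 withdrawal differed from each other by a median of 0.10 at day 4 and -0.03 at day 8. A difference of -1 or less was found for 9 genes without CHIR at day 8 (4.86% of all genes) and for 1, Ccnf, without LIF (4.02%), and for none in the other 3 libraries, with 6.93% of all genes without BMP7 and 1.57% without CHIR at day 4, and 4.96% without BMP7 at day 8. The 9 were Bub1, Cdca8, Ccnb1, Ccnf, Aurkb, Ube2c, Kif20a, Ect2 and Cdca3, from -1.15 for Bub1 to -1.003 for Cdca3. CHIR withdrawal at day 8 held the lowest value of 26 of the 32 genes among the 9 libraries. From day 4 to day 8 of CHIR withdrawal 31 genes were lower (median -0.55), against medians of 0.04 for BMP7, -0.08 for heparin and -0.03 for Y27632. Nuf2 differed little. Its log2 difference was 0.16 and 0.19 without BMP7 at days 4 and 8, and -0.03 without CHIR and -0.09 without LIF at day 8.

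Ube2c at day 4 had 199.8 RPKM without BMP7 and 246 without CHIR, against 297 without heparin and 333 without Y27632. Birc5 at day 4 had 201 RPKM without BMP7 and 199 without CHIR, against 245 without heparin and 228 without Y27632. Cenpa at day 4 had 108 RPKM without BMP7 and 137 without CHIR, against 179 without heparin and 171 without Y27632. In each of these genes both values without BMP7 or CHIR were below both values without heparin or Y27632. Cdk1 at day 4 had 79.8 RPKM without BMP7 and 88.4 without CHIR, against 102 without heparin and 103 without Y27632. Top2a at day 4 had 66.8 RPKM without BMP7 and 81.1 without CHIR, against 107 without heparin and 95.1 without Y27632. Plk1 at day 4 had 55.0 RPKM without BMP7 and 56.5 without CHIR, against 70.0 without heparin and 72.8 without Y27632. The order of the pairs was the same. Tpx2 at day 4 had 40.0 RPKM without BMP7 and 48.3 without CHIR, against 65.6 without heparin and 58.6 without Y27632. Kif20a at day 4 had 34.8 RPKM without BMP7 and 40.3 without CHIR, against 53.7 without heparin and 48.4 without Y27632. It was so here too, and in these 8 genes the value without BMP7 was below that without CHIR except in Birc5. Ube2c at day 8 had 238 RPKM without BMP7, 153 without CHIR and 242 without LIF, against 292 without heparin and 329 without Y27632. The lowest of the 9 values of Ube2c was that of CHIR withdrawal at day 8. Plk1 at day 8 had 52.9 RPKM without BMP7, 38.8 without CHIR and 41.5 without LIF, against 56.6 without heparin and 71.0 without Y27632. Aurka at day 8 had 40.1 RPKM without BMP7, 28.4 without CHIR and 38.5 without LIF, against 54.5 without heparin and 60.8 without Y27632. Ccnf at day 8 had 15.998 RPKM without BMP7, 11.1 without CHIR and 10.97 without LIF, against 21.9 without heparin and 26.9 without Y27632. In these 3 kinase and cyclin genes CHIR and LIF withdrawal gave the lowest values, and heparin and Y27632 withdrawal the highest. Birc5 at day 8 had 209.7 RPKM without BMP7, 163 without CHIR and 172 without LIF, against 237 without heparin and 232 without Y27632. Cdk1 at day 8 had 78.3 RPKM without BMP7, 68.7 without CHIR and 90.7 without LIF, against 102 without heparin and 112 without Y27632. CHIR withdrawal was lowest in both genes. Cenpa at day 8 had 123 RPKM without BMP7, 83.3 without CHIR and 116 without LIF, against 160.2 without heparin and 169 without Y27632. Top2a at day 8 had 72.9 RPKM without BMP7, 61.9 without CHIR and 76.6 without LIF, against 111 without heparin and 100.8 without Y27632. Tpx2 at day 8 had 36.6 RPKM without BMP7, 33.5 without CHIR and 44.6 without LIF, against 53.2 without heparin and 56.0 without Y27632. It was also lowest in these 3 genes. Kif20a at day 8 had 37.3 RPKM without BMP7, 26.8 without CHIR and 38.1 without LIF, against 55.3 without heparin and 54.8 without Y27632. Mki67 at day 8 had 18.5 RPKM without BMP7, 18.9 without CHIR and 21.8 without LIF, against 27.1 without heparin and 24.8 without Y27632. Here too heparin and Y27632 withdrawal stood highest.

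**Figure D5:**
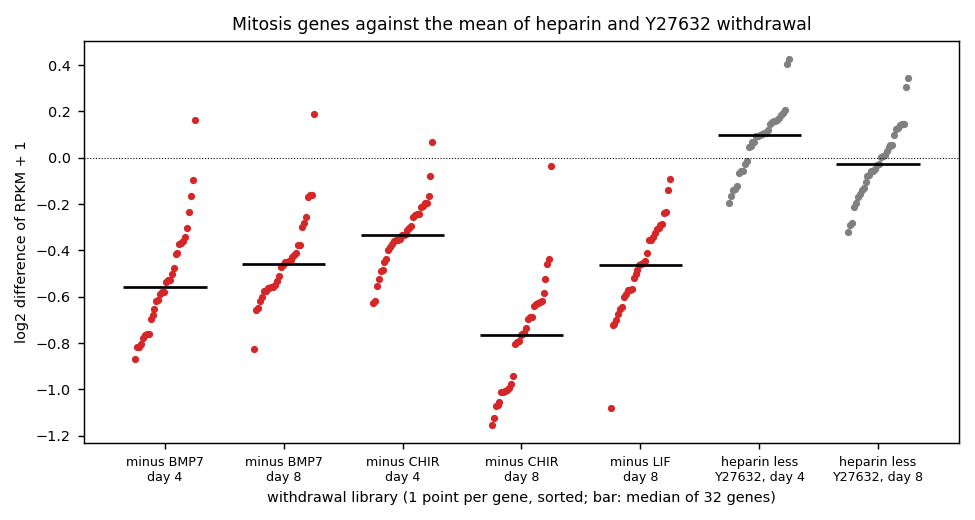
Log2 difference of RPKM + 1 (vertical axis) of the 32 mitosis genes, 1 point per gene in sorted order, in 5 withdrawal libraries against the mean of heparin and Y27632 withdrawal on the same day (red), and in heparin against Y27632 withdrawal (grey), with the median as a bar. The red medians run from -0.33 to -0.76, and the grey ones are 0.10 and -0.03.

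The other lists were not all alike. Of 71 other mitosis genes measured, 67 were lower at day 4 without BMP7 and 67 without CHIR, and at day 8 69 without BMP7, 69 without CHIR and 62 without LIF, with medians of -0.55 and -0.29 at day 4 and of -0.46, -0.65 and -0.42 at day 8. Of 23 G1/S and replication genes, 19 and 18 were lower at day 4 without BMP7 and without CHIR, and 20, 21 and 21 at day 8 without BMP7, CHIR and LIF. Regulators of mitotic entry and exit, 19 in number, were split, with 10 lower in each library at day 4, and at day 8 13 without BMP7, 13 without CHIR and 8 without LIF, and medians from -0.15 to 0.03. Of 20 G2/M regulators, 13 and 15 were lower at day 4 and 16, 18 and 13 at day 8 in the same order, with medians from -0.24 to -0.04. Of 7 CDK inhibitor genes, 4 were higher without BMP7 (median 0.14) and 6 without CHIR (0.12) at day 4, and 5 without BMP7 (0.23), 7 without CHIR (0.48) and 6 without LIF (0.54) at day 8. Cap mesenchyme markers summed to 669 and 591 RPKM without BMP7 at days 4 and 8, 1115 and 519 RPKM without CHIR and 695 RPKM without LIF, against 877 to 983 RPKM without heparin or Y27632. Stroma markers summed to 417 to 546 RPKM in the 5 libraries, against 109.8 to 161 RPKM without heparin or Y27632. Of 14 tubule markers, 6 or 7 were at 0 in each withdrawal library, and the sum was led by Spp1, with 1625 and 1251 RPKM without BMP7 and 480.2 and 2169 RPKM without CHIR at days 4 and 8. The part of these genes in the lower level of mitosis genes was not tested.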

How the data were processed

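RNA-seq values were deposited by the authors as RPKM per gene for 29 libraries. Per the submitters' processing notes, STAR and Cufflinks were used with mm9 for the 20 poly(A) libraries, and for the 9 total RNA libraries this is not given in the sources used here. Symbols turned into dates (27) and the last 2 lines of the table were left out. Tests used limma 3.58.1 (R 4.3.3) with a trend on log2(RPKM + 1), over genes with at least 1 RPKM in 2 libraries of the fit, with Benjamini-Hochberg adjustment and a threshold of 0.05. Poly(A) and total RNA libraries were not compared. Depth was estimated from the steps of low values, of which 44.9% to 79.4% per library lay within 0.1 read of a whole number, so no count test was run. All 32 genes are accounted for. Every library is given for the most abundant gene of each role, and the libraries compared for the genes with the highest and lowest change in a tested comparison. The genes and lists were chosen with earlier results of these data known. Alternatives were another pseudocount (0.1), no filter, other scalings, a replicate block and leaving out each library or line.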

Additional observations from a re-analysis of the deposited data

Results flagged for a closer look

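Within the 4 lines of a passage, a single line stood apart from the others for 6 of the 32 genes, by a gap to its neighbour that took most of the range of the group on the log2(RPKM + 1) scale. This gap is relative to the spread of the other lines and does not measure the size of a difference. At P80 the line from E16.5 was set apart below the other lines in Ccnf (18.4 RPKM), Cenpa (134 RPKM), Kif11 (25.7 RPKM) and Top2a (82.5 RPKM). The line from E13.5 was set apart below the others in Ccnb2 at P80, at 69.9 RPKM. At P20 the line from E11.5 was set apart above the others in Anln, at 23.3 RPKM. Each gene was screened once at P80 and once at P20, and the genes set apart in the line from E16.5 share 1 library. Chance sets apart about 1 in 20 groups by this measure, and with 1 library per line and passage no cause was tested.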

How the results depend on the processing

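The fall at P1 against E11.5 kept its direction in the median of the 32 genes under every alternative run, while the counts of calls moved. With 2 libraries per group or 1 per line, the number of libraries limits precision, and depth is only an estimate. Quantile scaling shifted the median of all genes by -0.15 (P1 against E11.5), -0.13 (E16.5 against E13.5), -0.14 (late against early primary cells) and 0.13 (the difference in origin effect). The medians of the 32 genes were then -0.71, -0.18, -0.43 and 0.15. The withdrawal medians kept their direction under the 5 alternatives run, which include heparin or Y27632 withdrawal alone as comparator.

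Whether replicate numbers pair the libraries was left undecided. Over 15 pairs of groups the correlation of deviations ran from -0.11 to 0.37, with a median of 0.08 and 7 over 0.1. With the replicate number as a block, 9 genes in place of 5 were lower in late than in early primary cells, 2 in place of 0 were lower at P20 and 3 in place of 5 higher at P80 against primary cells. At P1 against E16.5, 8 genes in place of 12 were lower, and 7 of the 12 calls were kept (lost: Ccnb2, Ccnf, Plk1, Bub1b and Kif20a). The calls of Cdk1 and Bub1 at P80 and of Kif20a in late primary cells were also lost, and those at P1 against E11.5 were kept. With no block for line, 1 gene of all was called between P80 and P20.

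Between E16.5 and E13.5, 130 genes of all were called with the pseudocount 0.1. Of the 12 genes lower at P1 than at E16.5, the count was 7 with no filter and 6 with quantile scaling. At P20 against primary cells 7 were higher with trimmed-mean scaling. At P80 2 were higher with no filter. In late against early primary cells 3 were lower with no filter. Of all genes, late against early lines gave 17 with the pseudocount 0.1, 23 with no filter and 353 with P20 lines only. The difference in origin effect gave 225 with the pseudocount 0.1, 57 with quantile scaling, 371 with P20 lines only and 25 with P80 lines only.

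Chosen after the data were seen were the libraries on 1 side of the shift (P20: 0 higher and 1262 of all genes; P80: 1 higher), P1 left out (P20: 3 lower; P80: 3 higher, 4 lower, median -0.015; late against early primary cells: 2 lower, 1396 of all genes, median -0.19; difference in origin effect: 254 of all genes, median -0.10), the shift as a term (9 lower in late primary cells), and P1 against E11.5 only for the difference in origin effect (53 of all genes, median 0.66). In late against early primary cells the shift follows the replicate number, so the shift as a term repeats the replicate block.

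The sign turned for Cenpf at P80 against primary cells with trimmed-mean scaling (0.0095). It turned for Ccnb2 in late against early lines with trimmed-mean (-0.014) and quantile scaling (-0.0014) and with P20 lines only (-0.15), and for Ect2 in the difference in origin effect with P80 lines only (0.045). The cause was not tested.

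Leaving out 1 library, or both passages of 1 line in the comparisons between passages and of origin, gave these ranges. Six2-negative against E12.5 had 0 to 1 lower and 400 to 2397 genes of all. P1 against E11.5 had 11 to 25 lower, 1427 to 6376 of all, medians from -1.07 to -0.52, and Ect2 from -0.49 to 0.44, positive without E11.5 library 2 (0.07) or P1 library 2. E16.5 against E13.5 had 11 to 957 of all. P1 against E16.5 had 0 to 21 lower, 154 to 3912 of all, medians from -0.97 to -0.37, and Ect2 from -0.35 to 0.58. P20 against primary cells had 1 to 5 higher and 0 to 2 lower. P80 against primary cells had 1 to 5 higher and medians from 0.033 to 0.28. P80 against P20 had 1 to 2 of all. Late against early primary cells had 2 to 22 lower, 1188 to 5561 of all, medians from -0.61 to -0.29, and Ect2 from -0.30 to 0.0089. Late against early lines had 4 to 217 of all and Ccnb2 from -0.11 to 0.15, negative also without the E16.5 line (-0.03). The difference in origin effect had 8 to 871 of all and medians from 0.041 to 0.36. Over single genes, leaving out 1 library or 1 line in this way left 609 results on their side of the threshold with their sign, took 217 below the threshold of a call, brought 4 past it and turned the sign of 6.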
